A study of Rattus norvegicus with 40 samples.

Results

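The cytosolic ribosomal protein genes are the genes whose products, with ribosomal RNA, build the large (Rpl) and small (Rps) subunits of the ribosome in the cytoplasm. All gene models with a symbol that begins with Rpl or Rps and a digit were taken, except those that begin with Rps6k, which name kinases. This gave 113 of 31677 gene models, the same ones in all 15 deposited tables. They were followed in T cells of Dahl salt-sensitive (SS) rats, whose blood pressure rises on a salty diet, sequenced in 40 libraries of which 4 made up each of 10 groups and each held RNA from a pool of 3 rats. Circulating T cells and kidney T cells were each taken from 5 groups of rats. These were SS/MCW rats on low-salt chow (LS) at 7 weeks of age, SS/MCW rats on LS at 10 weeks, SS/MCW rats at 10 weeks after 3 weeks of high-salt chow (HS), SS/CRL rats on LS at 10 weeks, and SS/CRL rats at 10 weeks after 3 weeks of HS. Every group was therefore of the SS strain, and no other strain served as a control. Levels are the authors' FPKM (fragments mapped to a gene model, scaled to its length and to the size of the library), 1 value per group, so the spread among the 4 libraries of a group and their depth are unknown and no standard deviation is printed. Rose and fell are used only for genes whose Cuffdiff q, taken from the authors' deposited table, was under 0.05.

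Ribosomal proteins are made in nearly equal amounts, and their mRNAs are among the most abundant and most compact of a cell. Most of these mRNAs begin with a C followed by a run of pyrimidines, the 5' terminal oligopyrimidine (TOP) tract, through which the kinase mTOR and the RNA-binding protein LARP1 set how actively they are translated. Resting T cells hold stores of such mRNAs and raise their translation within hours of activation. Mammalian genomes also carry many processed copies of ribosomal protein genes, which were reverse-transcribed from the mRNA and lie on other chromosomes.

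The 113 gene models were not all of 1 kind. Compared with the chromosome that RefSeq gives for the symbol, 67 models of core ribosomal protein genes lay on the same chromosome (38 of the large and 29 of the small subunit) and are called resident genes here. Another 28 models carried a core symbol on another chromosome and are called off-chromosome models, and 18 carried other symbols, those of paralogs, numbered copies and look-alikes. Of the off-chromosome models 14 spanned under 1000 bases, against 1 of the resident genes. Of 73 core symbols looked for, 71 were found (Rpl7a and Rpl28 are not analysed here). Rpl8, Rpl10, Rpl21 and Rps4x were represented by no resident model, so their off-chromosome models stand for them. Of 20 symbols on more than 1 model, Rps29 stood on 4, Rpl12, Rpl32 and Rpl37 on 3 each, and on 2 each, among others, Rpl6, Rpl9, Rpl13, Rpl21, Rpl35a, Rpl36al, Rpl37a, Rpl38, Rps7, Rps13, Rps18, Rps19, Rps24, Rps27a and Rps28. How reads that match several copies were assigned is not given in the sources used here, so the levels of near-identical copies and of their resident genes are uncertain. Each model is reported apart, with its chromosome.

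The cells were checked against T cell markers before the ribosomal protein genes were compared. The 14 T cell identity markers, among them the receptor chain genes Cd3d, Cd3e and Cd3g, had summed levels of 4911 to 6061 FPKM in blood and of 213 to 794 FPKM in the kidney groups. All 14 were lower in kidney in all 5 groups of rats. The 9 proximal tubule markers summed to at most 0.880 FPKM in circulating cells and to 2654 to 10305 FPKM in kidney cells. Slc34a1, a phosphate transporter of the tubule, lay between 404 and 2989 FPKM in kidney. Umod, made in the thick ascending limb, ranged from 953 to 12856 FPKM there. Cd3e ranged from 740 to 874 FPKM in blood and from 20.5 to 99.0 FPKM in kidney, Cd4 from 116 to 135 FPKM and from 4.23 to 19.1 FPKM, and the leukocyte marker Ptprc from 606 to 761 FPKM and from 7.85 to 44.0 FPKM. The kidney libraries labelled T cells therefore held abundant tubule RNA, and every kidney value below is that of the mixture. In bulk RNA, fewer cells of a type and less RNA per cell cannot be told apart.

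The start sites of genes that moved together are shown first, because the TOP tract is the sequence they are best known to share. Each line gives the 60 bases centred on the start that RefSeq annotates on build GRCr8, on the gene's strand, with the longest run of at least 8 pyrimidines in capitals. The first 6 genes hold such a run and fell in kidney cells in all 5 groups of rats. Rps3a fell in all 5 as well, with a larger difference than Rpl31, Rps27 and Rpl22, and its longest run is of 7 pyrimidines, so it has no capitals. Rpl38, with a run, and Rpl41, without one, had the smallest differences of the resident genes, and Rps27l, Rpl22l1 and Rpl7l1 are paralogs whose differences from blood are set beside those of their partners further on.
Rps7 (chr6:50999416-50999475, minus strand): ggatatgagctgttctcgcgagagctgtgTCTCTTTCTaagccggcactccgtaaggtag
Rpl35a (chr11:81234992-81235051, minus strand): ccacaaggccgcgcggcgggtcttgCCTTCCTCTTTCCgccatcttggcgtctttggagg
Rpl36a (chrX:102059419-102059478, plus strand): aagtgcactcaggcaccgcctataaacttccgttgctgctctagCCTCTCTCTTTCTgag
Rpl31 (chr9:49143081-49143140, plus strand): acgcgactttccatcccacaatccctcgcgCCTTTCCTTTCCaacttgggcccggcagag
Rps27 (chr2:177964577-177964636, minus strand): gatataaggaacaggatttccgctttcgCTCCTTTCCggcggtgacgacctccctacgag
Rpl22 (chr5:168117931-168117990, plus strand): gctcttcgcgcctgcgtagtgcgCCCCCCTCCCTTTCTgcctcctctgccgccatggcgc
Rps3a (chr2:173827013-173827072, minus strand): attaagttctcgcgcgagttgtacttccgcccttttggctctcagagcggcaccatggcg
Rpl38 (chr10:100200405-100200464, plus strand): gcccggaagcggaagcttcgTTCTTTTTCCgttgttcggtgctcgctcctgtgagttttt
Rpl41 (chr7:1563468-1563527, minus strand): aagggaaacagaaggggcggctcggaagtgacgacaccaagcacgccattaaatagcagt
Rps27l (chr8:76443628-76443687, plus strand): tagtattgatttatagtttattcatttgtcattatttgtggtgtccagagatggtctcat
Rpl22l1 (chr2:113683166-113683225, plus strand): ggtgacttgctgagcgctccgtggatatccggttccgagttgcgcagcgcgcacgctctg
Rpl7l1 (chr9:21695688-21695747, plus strand): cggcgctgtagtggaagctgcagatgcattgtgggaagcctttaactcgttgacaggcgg

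A run of at least 8 pyrimidines within 30 bases of the annotated start was present in 47 of 58 core ribosomal protein genes with a promoter in the RefSeq table (81.0%), against 6365 of 27457 RefSeq promoters (23.2%). A run of at least 8 purines on the gene's strand, which is a pyrimidine run on the other strand, was present in 10.3% and 24.5%. A C followed by 4 pyrimidines exactly at the annotated start was found in 22 of the 58 (37.9%) and in 2.63% of all promoters. The letters CTTCCG, or CGGAAG on the other strand, stood in the 300 bases around the start in 32 of the 58 (55.2%), against 17.4% of all promoters. Mitochondrial ribosomal protein genes held the letters about as often (33 of 66) but the pyrimidine run in 24.2%. These matches describe the annotated windows and are not evidence of a start or a site in these cells.

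**Figure D1:**
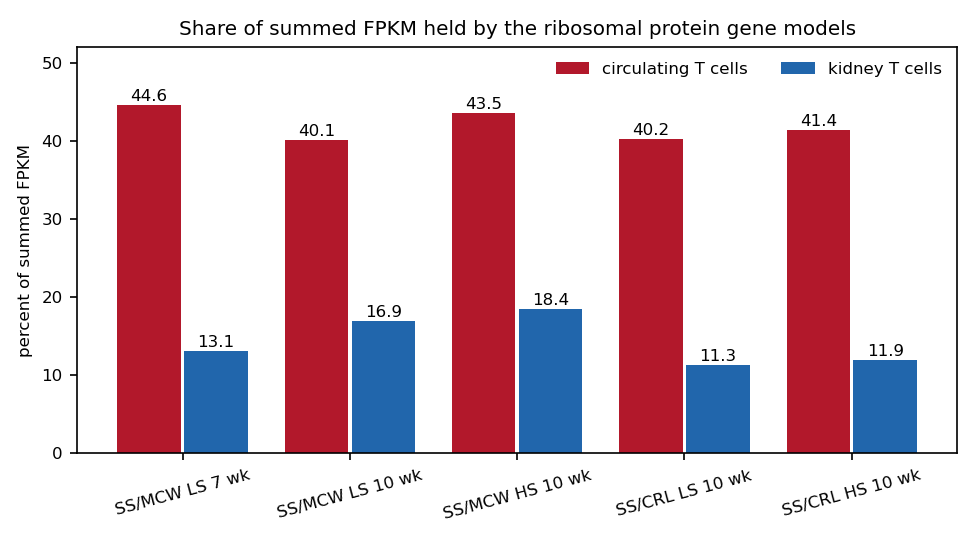
Percent of the summed FPKM of all gene models held by the 113 ribosomal protein gene models (vertical axis) in circulating (red) and kidney (blue) T cells of each of the 5 groups of rats; each bar is 1 deposited value per group, without error. The circulating bars lie between 40.1 and 44.6 percent and the kidney bars between 11.3 and 18.4 percent.

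Ribosomal protein mRNA filled a large part of the circulating T cell transcriptome. The 113 models held 44.6% of the summed FPKM in circulating cells of SS/MCW rats on LS at 7 weeks, 40.1% at 10 weeks, 43.5% after HS, 40.2% in SS/CRL LS and 41.4% in SS/CRL HS. In kidney cells of the same groups they held 13.1%, 16.9%, 18.4%, 11.3% and 11.9%. With the 20 gene models of highest FPKM left out of the sums, the kidney shares of SS/MCW rats at 10 weeks became 10.9% on LS and 12.0% on HS, and the circulating shares lay between 31.0% and 35.4%. The circulating and kidney groups did not overlap. Of the 20 gene models of highest FPKM 15 were members in every circulating group, and between 4 and 11 in the kidney groups. The resident genes held between 37.8% and 41.8% of the sum in circulating cells and the off-chromosome models between 1.63% and 2.43%.

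Rpl41, which encodes a very short basic peptide of the large subunit, had the highest median level of all members in both tissues. Its FPKM in blood was 22681, 14415, 20921, 15491 and 17354 in SS/MCW LS 7 weeks, SS/MCW LS 10 weeks, SS/MCW HS, SS/CRL LS and SS/CRL HS, and its FPKM in kidney was 7597, 12234, 9770, 7322 and 6805. All circulating values exceeded all kidney values, with the smallest gap at 10 weeks on LS in SS/MCW rats. Rps27, a zinc-finger protein of the small subunit, followed in blood at 14713 to 18725 FPKM, and Rps29, another zinc-binding subunit, at 11451 to 17546 FPKM. These ranges of Rpl41, Rps27 and Rps29 overlapped one another, so their order in blood is not settled, whereas those of Rps24 on chromosome 16 (8481 to 11718 FPKM) and Rpl35 (8749 to 12794 FPKM) lay below that of Rps27. In kidney cells Rpl41 was followed by Rps29 (3460 to 6894 FPKM), Rpl35 (2323 to 3893 FPKM), Rpl38 (2554 to 3790 FPKM) and Rps27 (2345 to 4242 FPKM), and the ranges of these 4 overlapped, as did those of Rpl41 and Rps29.

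At the low end of the resident genes stood the model of Rps19. The product of Rps19 binds ribosomal RNA at the head of the small subunit, and Rps19 is the gene most often mutated in Diamond-Blackfan anemia. Its model on chromosome 1 (83007888 to 83013586 on build rn5) ranged from 2.92 to 4.50 FPKM in blood and from 0.297 to 0.791 FPKM in kidney, and the Rps19 model on chromosome 9 from 4.90 to 7.77 FPKM and from 0.293 to 2.33 FPKM. The resident gene next in order in blood, Rps9, had 488 FPKM in its lowest circulating group. Whether the Rps19 models capture the reads of Rps19 mRNA was not tested, so their levels are not read as that of the gene. The lowest medians of all members in blood were those of Rpl3l, the striated-muscle paralog of Rpl3 (0.0925 FPKM), Rpl13 on chromosome 2 (0.129 FPKM) and RPL21 on chromosome 3 (0.261 FPKM). The lowest medians above 0 in kidney were those of Rpl32 on chromosome 5 (0.205 FPKM), Rpl13a-ps1 (0.224 FPKM) and the same RPL21 model (0.240 FPKM). No member was listed at 0 in all 10 groups, and 7 were listed at 0 in at least 1.

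Kidney cells were compared with circulating cells within each group of rats to ask how T cells of the organ differ from those in blood. The ribosomal protein genes were lower in kidney almost throughout. Of 108 members tested in SS/MCW rats on LS at 7 weeks 93 fell and 2 rose, against 23.9% and 32.9% of all gene models. At 10 weeks on LS 72 of 106 fell and 2 rose, against 17% and 26.6%. After HS 90 of 108 fell and 2 rose, against 18.4% and 30.6%. In SS/CRL rats on LS 91 of 106 fell and 3 rose, against 22% and 31.5%, and on HS 92 of 109 fell and 3 rose, against 20.3% and 30.6%. In all 5 comparisons 70 of the 106 members tested in each fell, against 13.6% of all gene models, and 1 member rose, against 18.4%.

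The size of the difference varied among the groups of rats. Over members that reached 1 FPKM in a tissue, the median log2 fold change was -2.61 at 7 weeks and -1.59 at 10 weeks in SS/MCW rats on LS, -1.81 after HS, -2.19 in SS/CRL LS and -2.21 in SS/CRL HS. The medians over all gene models were 0.20, 0.24, 0.20, 0.38 and 0.46 in the same order. For the resident genes the kidney median was 16.7% of the circulating level at 7 weeks and 31.8% at 10 weeks on LS. The T cell identity markers stood at 3.30% and 5.44% in those comparisons and at 12.3% after HS, where the resident genes stood at 28.5%, and in SS/CRL rats at 3.23% on LS and 2.71% on HS, beside 21.9% and 20.6% for the resident genes. The part of the cell mixture in the lower ribosomal protein levels was not tested.

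**Figure D2:**
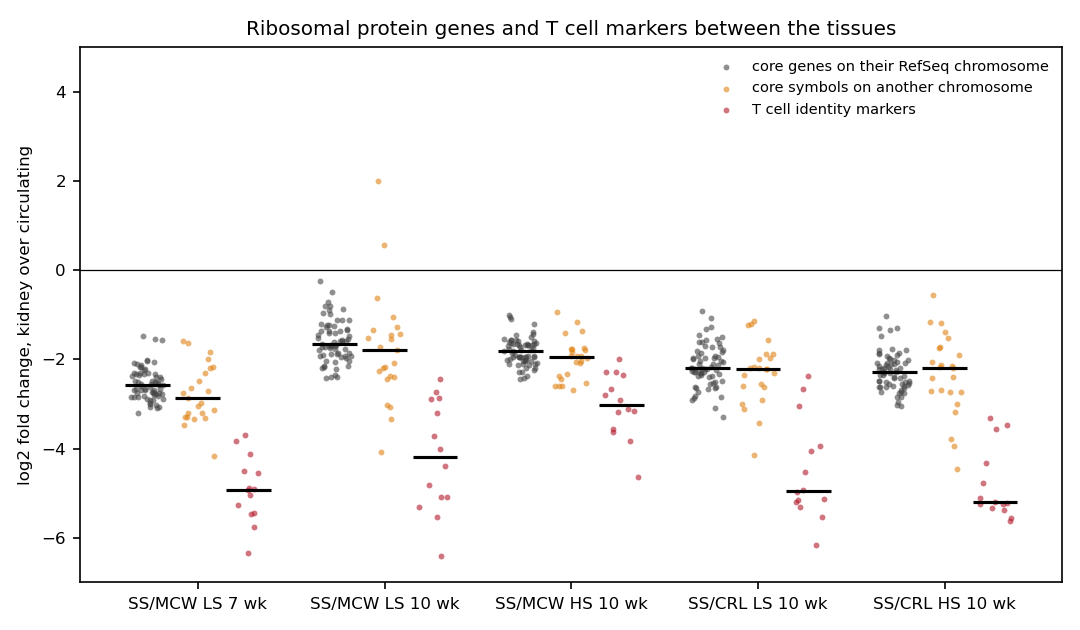
Log2 fold change of kidney over circulating T cells (vertical axis) in the 5 groups of rats for resident core genes (grey), off-chromosome models that reached 1 FPKM in a tissue (orange; values of 0 left out) and T cell identity markers (red); points are gene models and black lines medians. All grey points lie below 0, and in each group the red median lies below the grey one.

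All 67 resident genes were lower in every kidney group than in every circulating group, with no overlap of the 10 values. The same held for 23 of the 28 off-chromosome models and for 34.8% of all gene models tested in all 5 comparisons. In all 5 comparisons 52 of the 67 resident genes fell, against 13.6% of all gene models. Another 12 fell in 4, 2 in 3 and Rps19, at its low level, in 2. Both subunits were lower, with medians for the large and the small subunit of -2.49 and -2.69 at 7 weeks, -1.58 and -1.73 at 10 weeks on LS, -1.74 and -1.94 after HS, -2.18 and -2.25 in SS/CRL LS, and -2.25 and -2.39 in SS/CRL HS. The order of the genes repeated across the 5 comparisons, which share no group. Spearman's rho across the 67 genes lay between 0.767 and 0.928 for the 10 pairs of comparisons, as a description, since the genes share their libraries and transcript models. In 23 genes the change was below the median of the resident genes in all 5 comparisons, and in 23 others it was below it in none.

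**Figure D3:**
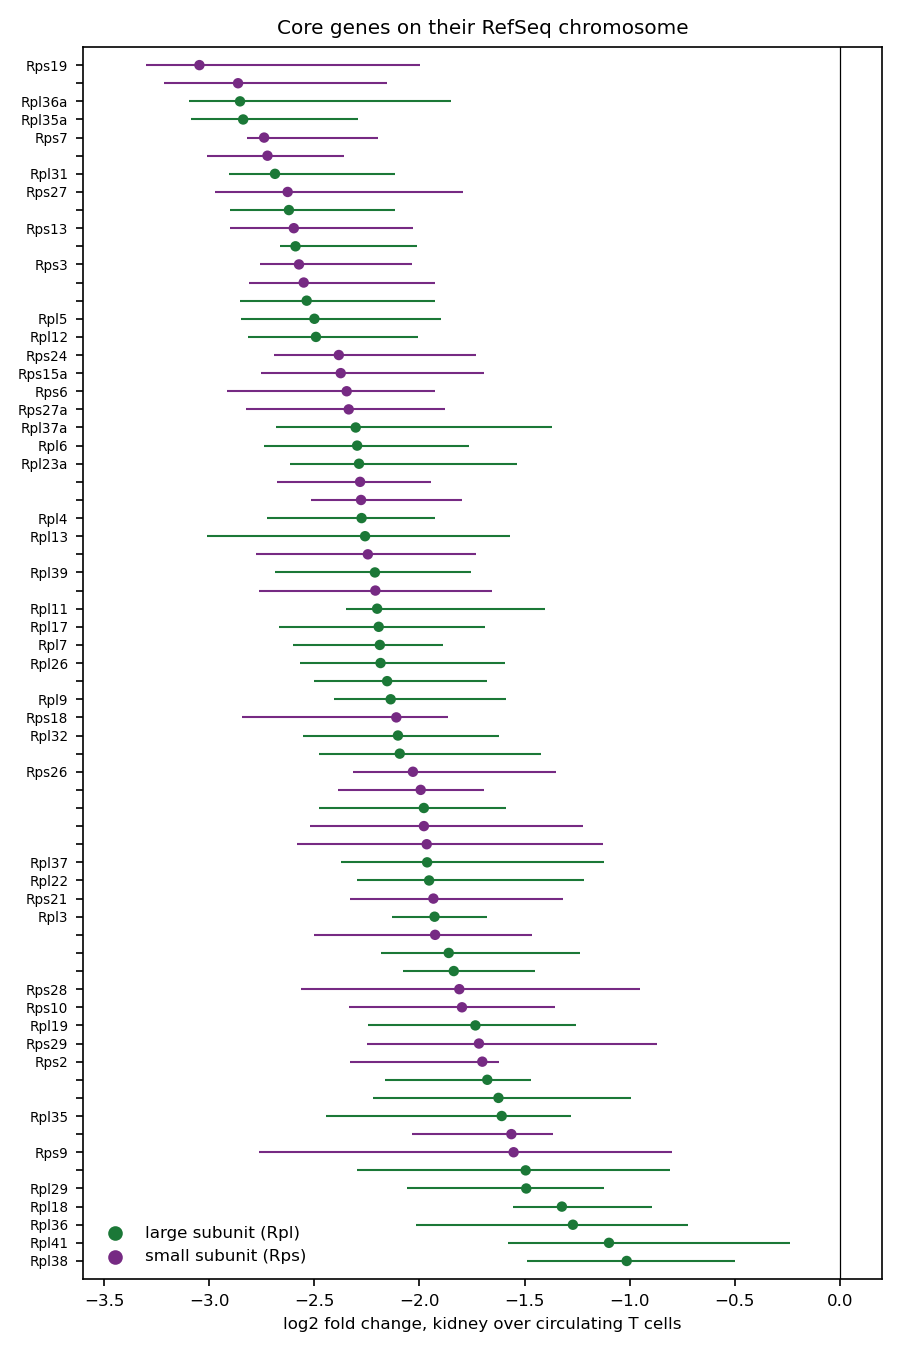
Median (point) and range (line) over the 5 groups of rats of the log2 fold change of kidney over circulating T cells (horizontal axis) for each of the 67 resident genes, large subunit in green and small subunit in purple; genes named in the text are labelled. Every line lies below 0, and the medians run from -3.05 for Rps19, whose model had at most 4.50 FPKM, to -1.01 for Rpl38.

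Among the largest deficits in kidney of resident genes with at least 5 FPKM were those of Rpl36a and Rpl35a. Rpl36a, a large subunit protein near the tRNA exit site (chromosome X from 105292220 to 105294934), had 3736, 3017, 4138, 2771 and 3534 FPKM in blood, in the order of groups given for Rpl41, and 437, 836, 1008, 384 and 435 FPKM in kidney. The 2 kidney groups of SS/MCW rats at 10 weeks were the highest, and all kidney values lay below all circulating ones. Its median log2 fold change was -2.85 and it fell in all 5 comparisons. Rpl35a, a large subunit protein mutated in some families with Diamond-Blackfan anemia (chromosome 11 from 74048222 to 74051421), stood at 1861, 1526, 2019, 1528 and 1683 FPKM against 221, 291, 412, 180 and 235 FPKM, a median of -2.84, and also fell in all 5. Among all members that reached 5 FPKM in a tissue in each of the 5 comparisons, the lowest 2 medians were off-chromosome, RPL12 on chromosome X at -3.01, which fell in 1 comparison, and RPS13 on chromosome 3 at -2.98, which fell in all 5.

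The smallest deficits of resident genes were those of Rpl38 and Rpl41. Rpl38, a large subunit protein known for its part in the translation of Hox mRNAs (chromosome 10 from 102858163 to 102861799), had 7723, 5351, 6913, 5523 and 6289 FPKM in blood and 2757, 3790, 3422, 2929 and 2554 FPKM in kidney, again without overlap. Its kidney level was between 35.7% and 70.8% of the circulating one, and it fell in 4 comparisons, while at 10 weeks on LS its q was 0.324 (authors' deposited table). Rpl41 had a median of -1.10 and fell in 3. Rpl36, Rpl18 and Rpl29, named here after their values were seen, had medians of -1.27, -1.32 and -1.49.

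Genes with a known place in the ribosome moved with the rest. Rpl5 and Rpl11, which carry the 5S ribosomal RNA and bind Mdm2 when ribosome assembly fails, had medians of -2.50 and -2.20 and fell in 4 and 5 comparisons. At the peptide exit tunnel Rpl4, Rpl17 and Rpl39 had medians of -2.28, -2.19 and -2.21 and fell in all 5. Around its opening, where the signal recognition particle and chaperones dock, Rpl31 (-2.69), Rpl23a (-2.29) and Rpl26 (-2.19) fell in all 5, and Rpl19 (-1.73) and Rpl35 (-1.61) in 4. At the mRNA entry of the small subunit Rps3 had a median of -2.57 and Rps2 of -1.70, and both fell in all 5. Rps6, the substrate of the S6 kinases (-2.35), and Rps27a, whose product is fused to ubiquitin (-2.34), fell in all 5 as well.

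The genes of Diamond-Blackfan anemia, an inherited failure of red cell production, fell in all 5 comparisons where they were well expressed, except Rpl5. Besides Rpl35a and Rpl11 these included Rps7 (median -2.74), Rps24 on chromosome 16 (-2.38), Rps26 (-2.03) and Rps10 (-1.80). Rps7 ranged from 5173 to 6599 FPKM in circulating cells and from 733 to 1419 FPKM in kidney, with no overlap. Off-chromosome models of these genes fell in all 5 as well, RPS7 on chromosome 5 with a median of -2.20, Rps24 on chromosome 10 with -2.19 and Rpl35a on chromosome 5 with -2.08, and RPS27A on chromosome 5 (-1.93) fell in 4.

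Several paralogs and look-alikes had a smaller deficit in kidney than their partners, or a higher level there than in blood. Rps27l, a p53-induced paralog of Rps27 (chromosome 8 from 77075527 to 77078934), was the 1 member that rose in kidney in all 5 comparisons. Its levels were 127, 83.2, 102.7, 90.5 and 105.5 FPKM in blood against 233, 227, 174, 208 and 245 FPKM in kidney, so that all kidney values exceeded all circulating ones. Its median log2 fold change was 1.20, while Rps27 had a median of -2.63 and fell in all 5. Rps27l thus amounted to between 0.563% and 0.681% of the Rps27 level in blood and to between 5.11% and 9.78% in kidney. Of the sequences printed above, Rps27 has a pyrimidine run across its start and Rps27l none, while 23.2% of all RefSeq promoters hold such a run. Any part of the run in the levels of the pair was not tested.

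Rps4y2, a homolog of Rps4x (chromosome 4, at a locus shared with another gene model), rose in kidney in 4 comparisons. Its levels were 6.56, 4.34, 6.16, 2.04 and 6.20 FPKM in blood against 40.8, 29.3, 24.4, 18.0 and 21.7 FPKM in kidney, with no overlap. The median was 2.64, and the comparison not called, at 10 weeks on LS, had a q of 0.0552 (authors' deposited table). Rps4x has no resident model here, so Rps4y2 was set beside the off-chromosome Rps4x model on chromosome 4. Rps4y2 amounted to between 0.352% and 1.55% of that model in blood and to between 14.0% and 35.6% in kidney. The Rps4x model fell in all 5, with a median of -2.06. Rps19bp1, which encodes a binding partner of Rps19 and no ribosomal protein, rose in 3 comparisons, ranging from 59.8 to 85.6 FPKM in blood and from 102 to 136 FPKM in kidney, with a median of 0.53. Rpl10l, a testis paralog of Rpl10, ranged from 1.11 to 2.51 FPKM over the 10 groups and was called in none. Rpl10 has no resident model here either, and its off-chromosome model on chromosome 1 fell in all 5 with a median of -2.00.

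**Figure D4:**
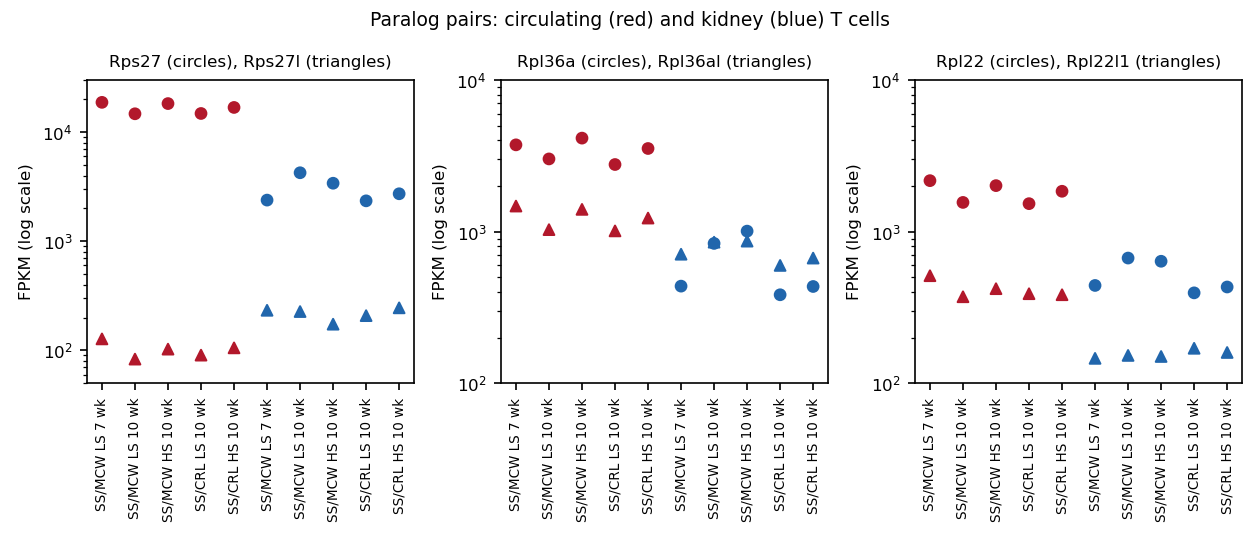
FPKM on a log axis for 3 genes (circles) and their paralogs (triangles) in each of the 5 circulating (red) and 5 kidney (blue) groups; each point is 1 deposited value. Rps27l rises while Rps27 drops, and Rpl36al exceeds Rpl36a in 4 of the 5 kidney groups.

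Rpl36al encodes nearly the same protein as Rpl36a and was less reduced in kidney. Its model on chromosome 18 had 1474, 1031, 1402, 1011 and 1229 FPKM in blood and 710, 852, 866, 599 and 669 FPKM in kidney, without overlap. It fell in 4 comparisons, with a median of -0.76. Its level was between 33.9% and 39.5% of Rpl36a in blood and between 85.9% and 162% in kidney, above 100% in 4 of the 5 kidney groups. The RPL36AL model on chromosome 10 did not exceed 6.09 FPKM. Rpl22l1, the paralog that Rpl22 represses in lymphocytes, fell in all 5 comparisons with a median of -1.29, against -1.95 for Rpl22, and stood at 20.8% to 25.5% of Rpl22 in blood and 22.8% to 43.1% in kidney. These ranges overlapped. Rpl7l1, a nucleolar relative of Rpl7, had a median of -0.94 and fell in 3, against -2.19 for Rpl7, which fell in all 5, and stood at 1.07% to 1.45% of Rpl7 in blood and at 2.51% to 3.63% in kidney. Rpl3, whose paralog Rpl3l was near 0, fell in all 5 with a median of -1.93. The differences between paralogs and partners were not tested.

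The translation machinery around the ribosome was described from lists of known genes. Beside the list counts below, 13.6% of all gene models tested in all 5 comparisons fell in all 5, and 18.4% rose in all 5. Of the ribosomal protein genes whose names fall outside the naming rule, the P-stalk genes Rplp0 (median -1.67) and Rplp1 (-1.82), the laminin-binding Rpsa (-1.42), and Fau (-0.99), which is fused to a ubiquitin-like domain, each fell in 4 of 5 comparisons. Rplp2 fell in none and rose in 1, with a median of 1.76. Other mRNAs known for a TOP tract behaved like the ribosomal protein genes: all 8 models of the list tested fell in all 5, led by Pabpc1, the poly(A)-binding protein (-3.06), Nap1l1 (-2.83), HNRNPA1 (-2.73) and Gnb2l1, the scaffold RACK1 on the small subunit (-2.24). Of 8 elongation factors tested throughout, 4 fell in all 5: Eef1g (-2.21), Eef1a1 (-2.15), Eef2 (-2.04) and Eef1b2 (-1.91). None rose in all 5. In at least 1 comparison 3 of the 9 listed models rose and 7 fell, beside 12344 and 7362 of all 31677 gene models.

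Initiation and biogenesis factors were lower by less. The counts here also stand beside 13.6% of all gene models that fell in all 5 comparisons and 18.4% that rose. Of 30 initiation factors 8 fell in all 5 comparisons, among them Eif3e (-2.09), Eif2s3 (-2.01), Eif5 (-1.36) and Eif3h (-1.33), and Eif1b rose in all 5. The medians of that list lay between -0.81 and -0.50. Of 33 ribosome biogenesis factors 11 fell in all 5, among them Polr1b, a subunit of RNA polymerase I (-2.04), Gnl3 (-1.93), Wdr43 (-1.77) and Nop58 (-1.34), with list medians between -1.02 and -0.56. Sbds, chosen after its values were seen, rose in all 5 with a median of 1.21. Of 17 regulators 6 fell in all 5, among them Nfrkb (-2.84), Max (-2.03), Myc (-1.76) and the TOP-binding Larp1 (-1.28), and Rptor, the substrate-binding partner of mTOR and also chosen after its values were seen, rose in all 5 with a median of 0.87. The 76 mitochondrial ribosomal protein genes went the other way: 30 rose and 1 fell in all 5 comparisons, and their medians lay between 0.60 and 1.10.

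Within circulating T cells most calls of ribosomal protein genes were of off-chromosome models. Over the 5 comparisons 25 calls were made in 13 gene models, of which 8 were off-chromosome, 3 resident and 2 others. The resident genes had a median level in these tables of 87.4% to 92.4% of that in the tables between tissues for the same group (kidney tables, 110.0% to 115.3%), so each pair of values below comes from its own table. The comparisons within a tissue share groups and are given side by side.

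SS/MCW rats on LS at 10 weeks were compared with those at 7 weeks to show the change with age. In circulating cells 12 of 109 members tested fell and none rose, against 0.918% of all gene models that fell. All 67 resident genes had a lower value at 10 weeks, with a median log2 fold change of -0.41 beside -0.01 over all gene models and -0.13 for the T cell identity markers, but 3 fell by the test. Red cell markers summed to 193 FPKM at 7 weeks and 59.3 FPKM at 10 weeks, and their part in the result was not tested. The 3 were Rps9, which binds RNA at the mRNA channel, from 1037 to 523 FPKM, Rps28, a small subunit protein near the mRNA exit, from 10218 to 5658 FPKM, and Rps21, from 5979 to 3794 FPKM. Rps9 and Rps28 had a q of 0.0069 and Rps21 one of 0.0491 (authors' deposited table). Among the off-chromosome models RPS29 on chromosome 13 fell from 57.8 to 23.5 FPKM and RPS29 on chromosome 7 from 94.6 to 40.1 FPKM, while resident Rps29 stood at 15178 and 11302 FPKM and was not called (q 0.402). Rps10l1, a numbered copy of Rps10, fell from 459 to 214 FPKM. Rps24 on chromosome 10 (78838490 to 78838991), which shares its locus with another gene model, fell from 12793 to 6906 FPKM, beside 9767 and 7825 FPKM for resident Rps24 (q 0.586). Mitochondrial ribosomal protein genes had a median of -0.38 there, and 4 of 76 fell.

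The salt diet was then compared within each rat type. In SS/CRL rats 6 members fell and 1 rose of 109 tested, against 0.454% and 0.216% of all gene models. No resident gene was called, and their median was 0.18 beside 0.03 over all gene models. The 3 RPS29 models off chromosome 6 fell to between 38.9% and 40.5% of LS, RPS7 on chromosome 5 from 519 to 255 FPKM, Rpl35a on chromosome 5 from 884 to 538 FPKM, and Rps4x on chromosome 4 from 528 to 360 FPKM, and all 6 had a q of 0.0106 (authors' deposited table). Over the same comparison resident Rps29 stood at 10444 and 14808 FPKM and resident Rps7 at 4718 and 5227 FPKM, neither called. Rps4y2 rose from 1.86 to 5.60 FPKM. In SS/MCW rats no member of 111 was called by Cuffdiff, against 0.107% of all gene models in either direction, and 16 had an unadjusted p under 0.05 (14.4%, against 6.37% of all). All 67 resident genes had a higher value on HS there, with a median of 0.36 beside 0.04 over all gene models and 0.09 for T cell markers. Whether the salt effects of the rat types differ was not tested.

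SS/CRL rats were compared with SS/MCW rats on the same chow and at the same age. On LS 4 members rose and 1 fell of 109 tested, against 0.412% and 0.129% of all gene models. The 4 were the RPS29 models on chromosomes 13, 3 and 7, at 179%, 150% and 163% of SS/MCW, and Rpl35a on chromosome 5, at 144%, and Rps4y2 fell from 4.01 to 1.85 FPKM. On HS 1 of 111 fell, Rps9, from 758 to 424 FPKM (q 0.0224, authors' deposited table), against 0.0412% of all gene models. The median of the resident genes was -0.04 on LS and -0.22 on HS.

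**Figure D5:**
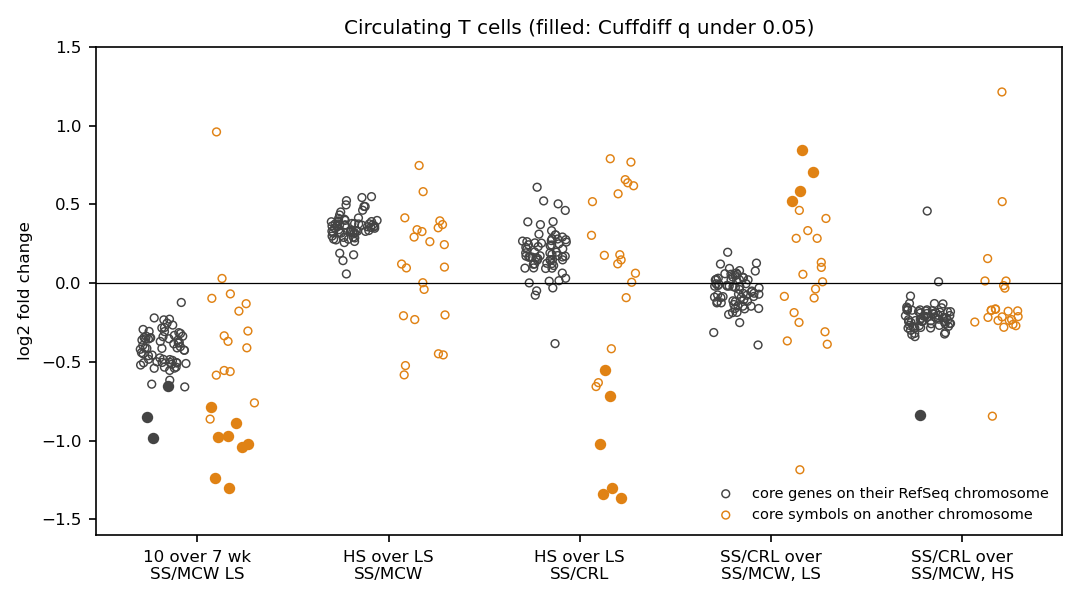
Log2 fold change (vertical axis) of resident core genes (grey) and off-chromosome models (orange) in the 5 comparisons within circulating T cells; filled points passed a Cuffdiff q of 0.05, and models under 1 FPKM in both groups or at 0 are left out. The resident genes form a narrow band near a common value in each comparison, and 18 of the filled points are off-chromosome models against 4 resident genes.

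Of the 8 off-chromosome models called in these comparisons 6 had the same order of groups, given here as a description, since they were picked by calls between these groups. RPS29 on chromosome 13 stood, in the tables between tissues, at 64.1 FPKM in SS/MCW rats at 7 weeks, 47.8 in SS/CRL on LS, 26.2 in SS/MCW on LS at 10 weeks, 22.1 in SS/MCW on HS and 19.5 in SS/CRL on HS. RPS7 on chromosome 5 followed the same order, at 822, 569, 420, 305 and 282 FPKM. The RPS29 models on chromosomes 3 and 7, Rpl35a on chromosome 5 and Rps4x on chromosome 4 did so too. RPS28 on chromosome 16 (16.0 FPKM in SS/MCW on LS at 10 weeks and 17.1 FPKM on HS) and Rps24 on chromosome 10 (7690 and 8315 FPKM) had those 2 groups the other way round. Resident Rps29 departed further, with its lowest value, 11451 FPKM, in SS/CRL on LS and its highest, 17546 FPKM, in SS/MCW on HS. Compact gene models outside the family were also called more often than the background: of those spanning under 1000 bases with at least 10 FPKM, 30 of 228 (13.2%) fell with age and 11 of 214 (5.14%) fell with salt in SS/CRL rats, beside 6 of 14 and 4 of 14 members of that kind. The part of locus size and of shared reads in these calls was not tested.

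Within kidney T cells calls of ribosomal protein genes were made in 1 of 5 comparisons, that of SS/CRL with SS/MCW rats on HS. There 8 of 102 members tested fell and none rose, against 2.97% of all gene models that fell, and 40 (39.2%) had an unadjusted p under 0.05, against 13.9% of all. Rpl36a fell from 1158 to 496 FPKM and Rps27l3, a numbered Rps27-like copy on chromosome 18, from 108 to 41.9 FPKM, both at a q of 0.00149 (authors' deposited table). Rpl13 fell to 50.4% of SS/MCW, Rpl17 to 51.9%, Rps15a to 52.9%, Rpl35a on chromosome 11 to 56.7% and Rps6 to 59.9%. The median of the resident genes was -0.62, and 65 of 66 tested had a lower value in SS/CRL. In the same comparison 12 of 14 T cell identity markers fell, with a median of -1.74 and summed levels of 213 FPKM in SS/CRL and 794 FPKM in SS/MCW in the tables between tissues. Macrophage markers summed to 174 and 929 FPKM in the same groups and proximal tubule markers to 6368 and 2868 FPKM. The part of the cell mixture in the ribosomal protein result was not tested.

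In the other 4 kidney comparisons no member passed the Cuffdiff threshold. SS/CRL differed from SS/MCW rats on LS by a median of -0.61 in the resident genes, all 66 of which had a lower value in SS/CRL, while T cell markers had a median of -0.22. Of 98 members 6 (6.12%) had an unadjusted p under 0.05, against 9.67% of all gene models, of which 1.81% were called. Proximal tubule markers summed to 10305 FPKM in SS/CRL and 4841 FPKM in SS/MCW there. From 7 to 10 weeks the resident median was 0.58, with 66 of 66 higher at 10 weeks, T cell markers at 0.50, 5 of 101 members (4.95%) with an unadjusted p under 0.05 against 7.95% of all gene models, and 1.07% of all gene models called. Distal nephron markers went from 14386 to 4345 FPKM and red cell markers from 623 to 3970 FPKM with age. The sign of the median was opposite to that in circulating cells, and this difference was not tested.

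Salt moved the kidney ribosomal protein genes by little. In SS/MCW rats the resident median was 0.06 on HS against LS, 1 of 103 members (0.971%) had an unadjusted p under 0.05 against 4.27% of all gene models, and 0.433% of all were called. The T cell markers had a median of 1.13 in that comparison, and 13 of 13 tested were higher on HS. In SS/CRL rats the resident median was 0.07 and that of T cell markers -0.27, 3 of 97 members (3.09%) had an unadjusted p under 0.05 against 14.7% of all gene models, and 5.51% of all were called.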

How the data were processed

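RNA of circulating and kidney T cells was sequenced by the submitters in 40 libraries, 4 per group. Per the submitters' processing notes, cutadapt, Trim Galore 0.2.5, TopHat, TopHat2 2.1.1, Cufflinks 2.2.1 and Cuffdiff were used, with build rn5. The deposited tables hold, per the file headers, 1 FPKM value per group computed by the authors, with a p-value and a q-value per gene model. Depth per library is unknown, so precision is too. Nothing shows whether pools are independent beyond their labels, and values per library were not used. Log2 fold changes were computed from FPKM because a spreadsheet had altered the deposited column. No test was run beyond the authors' own; a gene model was called at q under 0.05 with status OK, over all gene models.

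Members and lists were chosen with earlier results of these data known, and the split into resident, off-chromosome and other models after the data were seen. RefSeq (GRCr8) matched 107 members by symbol and 3 by synonym; 3 were unmatched. Its chromosome for each symbol, on another build than the rn5 of the deposited values, decided the split into resident and off-chromosome models. Its coordinates serve the printed start sites and the promoter counts only. Positions on rn5 are as the tables give them. The lists are of known genes: of 36 biogenesis factors 33 were matched, and all of the other translation lists.

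Genes named were the 5 members with the largest and the 5 with the smallest median log2 fold change between tissues at 5 FPKM or more in the higher tissue, up to 3 called members per direction in each comparison within a tissue, the 5 highest and 3 lowest by level, genes of known role, repeated symbols and up to 4 called genes per translation list. Names given beyond these, including the other called members within tissues and resident partners, were chosen after their values were seen, and a few genes that the rule selects are not reported here. Marker lists of B cells, macrophages, distal nephron, endothelium and red cells were summed as well: macrophage markers lay between 51.8 and 71.9 FPKM in blood and 170 and 929 FPKM in kidney, B cell markers between 30.4 and 62.1 and between 13.9 and 32.6, distal nephron markers between 4.66 and 7.86 and between 1419 and 14386, endothelial markers between 28.9 and 32.3 and between 107 and 197, and red cell markers between 59.3 and 193 and between 411 and 3970. Tables were read with pandas 2.3.3 (numpy 2.4.6) under Python 3.11.15, correlations came from scipy 1.17.1, figures were drawn with matplotlib 3.10.9, and the p adjustment was tested on simulated data. Alternatives were a q of 0.01, a minimum of 1 FPKM with p adjusted again, a pseudocount of 1, no minimum, recentring, sums without the 20 highest gene models, and counts of core or resident genes only.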

Additional observations from a re-analysis of the deposited data

How the results depend on the processing

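No paired analysis was possible because the tables hold 1 value per group, and for the same reason no library could be left out in turn; a run without proteins under 100 residues was not made, since no protein table was used here. Other alternatives were compared by count (within 1.5 times), median (within 0.25 log2) and share (within 5 percentage points). All 15 medians stayed within that limit under a pseudocount of 1, no minimum FPKM, recentring on the median of gene models at 5 FPKM or more in both groups (-0.23 to -0.15 between tissues), and core genes with 1 gene model per symbol, and all 16 counts did with 1 FPKM as a minimum and p adjusted again. At q under 0.01 the calls in circulating cells became 0 in SS/CRL rats on HS against LS and 0 between rat types on LS and on HS, and 2 in kidney cells between rat types on HS. The 47 core genes with 1 gene model per symbol are fewer by construction. Of them 47, 37, 45, 47 and 47 fell in kidney in the 5 comparisons, and 37 fell in all 5. Circulating calls of these genes were 1 with age, 0 with salt in SS/CRL rats, and 0 and 0 between rat types, and kidney calls 4. Counting only resident genes, chosen after seeing the data, left 3 circulating calls with age, 0 with salt in SS/CRL rats and 0 between rat types on LS. The members' percent of summed FPKM in circulating cells, in the order used for Rpl41, became 35.4, 31.0, 33.3, 31.0 and 32.6 when the 20 gene models of highest FPKM were left out of the sums, and 29.2, 26.7, 29.0, 26.5 and 27.6 with the 47 core genes; in kidney cells of SS/MCW rats at 10 weeks it became 10.9 on LS and 12.0 on HS in the first case and 11.1 and 12.4 in the second. No depth is known, so no limit of detection can be given.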
